A study of Mus musculus with 8 samples.

Results

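Marker genes of the alveolar type I cell were followed across 2 mouse lung lines. The 10 genes were Aqp5, Clic5, Hopx, Pdpn, Ager, Cav1, Akap5, Emp2, Rtkn2 and Gprc5a. They were taken by name from a table of raw counts for 43346 genes, in which each name occurred in 1 row, and all 10 had enough counts to be tested among 18546 tested genes. RNA came from LLC1 cells, the Lewis lung carcinoma line, which arose in a C57BL mouse, and from MLE12 cells, a lung epithelial line. MLE12 comes from a lung tumour in a mouse whose surfactant protein C promoter, active in type II cells, drove SV40 large T. Both lines were grown to about 80% confluence with no reagent added, and 4 libraries were read for each. Each group is thus a single transformed line in culture, and neither line is a primary type I cell. Totals were 46840648 to 55285307 counts in LLC1 libraries and 48643667 to 76722481 in MLE12 libraries.

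Type I cells are the thin, flat cells that cover most of the alveolar surface and across which gas passes. They arise in development from lung progenitors and after injury from type II cells, the cuboidal cells that make surfactant. NKX2-1 and the YAP and TAZ coactivators with their TEAD partners are known regulators of the type I state. Known type I products include a water channel (AQP5), a chloride intracellular channel family protein (CLIC5), a mucin-like surface protein (podoplanin), the receptor RAGE (gene Ager) and the caveolar coat protein caveolin-1. Several of these genes are not restricted to type I cells: caveolin-1 is abundant in endothelium and fibroblasts, and podoplanin in lymphatic endothelium and mesothelium.

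Of the 10 genes, 9 were lower in LLC1 than in MLE12, and Cav1 did not pass the test. Clic5, Aqp5 and Pdpn were nearly absent from LLC1 and abundant in MLE12, Ager, Emp2, Gprc5a and Hopx fell by less, and Akap5 and Rtkn2 differed little. The lines differed across the whole transcriptome: 81.6% of tested genes were called in either direction, 33.7% were over 2-fold and 76.3% did not overlap between the lines. With edgeR's quasi-likelihood test and an adjusted p under 0.05, 9 members were lower in LLC1, where 40.9% of all tested genes were called lower. None of the 10 was called higher in LLC1 by edgeR, by DESeq2 (0) or at an unadjusted p under 0.05 (0). Against a minimum fold of 2 (edgeR's glmTreat), 7 members were lower in LLC1, where 16.9% of all genes were. In 8 members every LLC1 library lay below every MLE12 library, as it did in 38.7% of all genes. The median log2 fold change, LLC1 over MLE12, was -2.25 over the 10 members and 0.02 over all tested genes. No label tells whether libraries of the same line came from separate cultures, so the p-values rest on a spread between samples that may be technical.

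**Figure D1:**
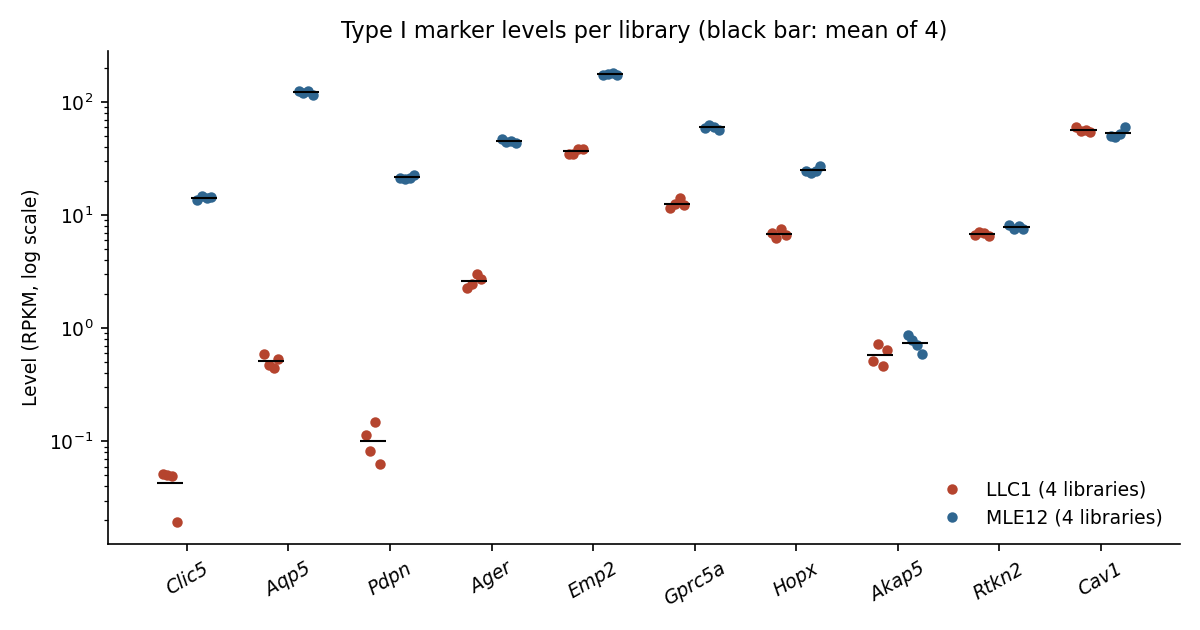
Level of each marker gene in every library, in RPKM on a log axis. Dots are libraries (4 LLC1 in red at left, 4 MLE12 in blue at right) and black bars are means. Clic5, Aqp5 and Pdpn are separated the most, and the libraries overlap for Cav1 and Akap5.

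**Figure D2:**
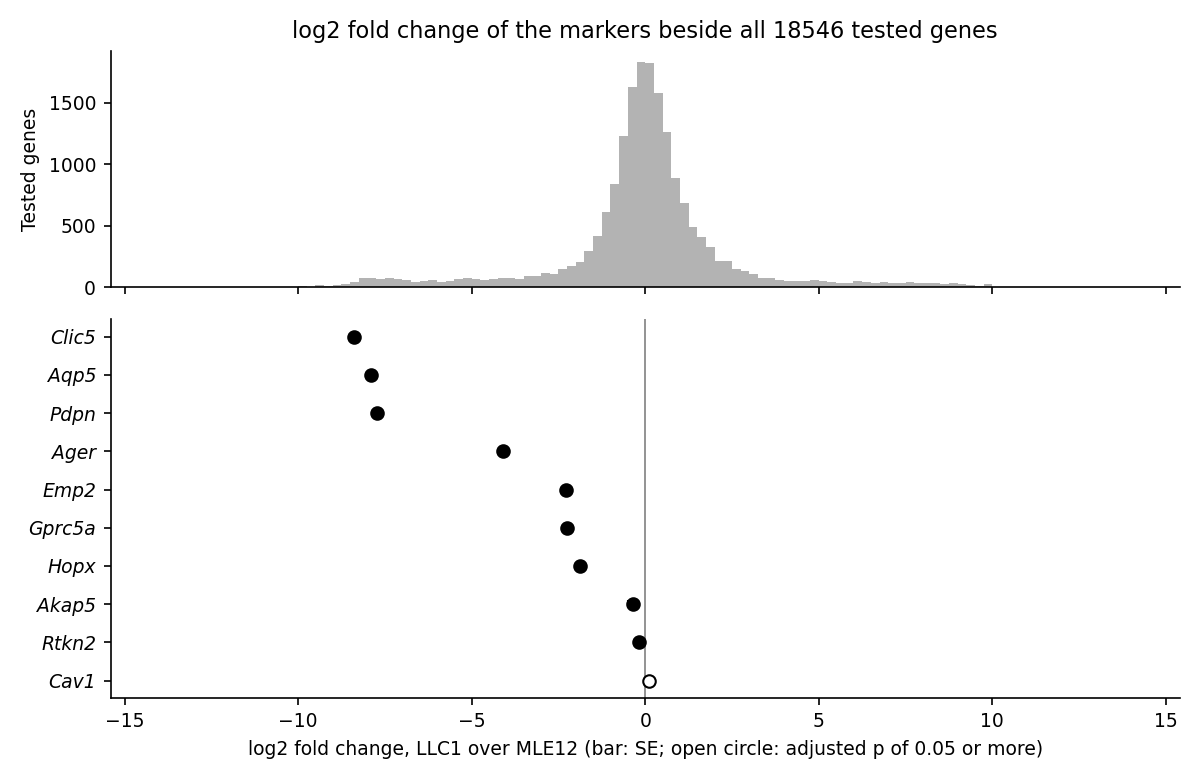
Log2 fold change (LLC1 over MLE12) of the 10 marker genes, with the SE as a bar that is mostly hidden by the circle, under a histogram of the log2 fold changes of all 18546 tested genes. Clic5 (-8.39), Aqp5 (-7.89) and Pdpn (-7.73) lie in the far left tail, and Cav1 (0.10, open circle) lies at the centre.

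The DNA just before the annotated starts of 4 members is shown, since the gene with the largest difference (Clic5), another nearly absent from LLC1 (Pdpn), a smaller difference (Hopx) and the gene without a call (Cav1) can be compared there. Each line gives 250 bases 5′ to 3′ on the gene's strand up to the base before the RefSeq start (GRCm38.p6, the mm10 build). Capitals mark exact matches, on either strand, to the GC box GGGCGG, the NKX2-1 core CTCAAG or the TATA word TATAAA.
Clic5: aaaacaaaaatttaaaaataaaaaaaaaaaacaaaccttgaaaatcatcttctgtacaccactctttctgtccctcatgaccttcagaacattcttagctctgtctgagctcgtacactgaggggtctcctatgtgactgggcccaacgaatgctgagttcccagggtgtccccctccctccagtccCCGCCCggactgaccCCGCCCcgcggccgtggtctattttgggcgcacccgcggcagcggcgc
Pdpn: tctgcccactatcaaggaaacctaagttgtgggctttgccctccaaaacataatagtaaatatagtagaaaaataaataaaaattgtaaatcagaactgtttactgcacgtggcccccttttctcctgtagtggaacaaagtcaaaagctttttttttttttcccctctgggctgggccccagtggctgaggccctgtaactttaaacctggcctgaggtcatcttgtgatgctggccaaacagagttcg
Hopx: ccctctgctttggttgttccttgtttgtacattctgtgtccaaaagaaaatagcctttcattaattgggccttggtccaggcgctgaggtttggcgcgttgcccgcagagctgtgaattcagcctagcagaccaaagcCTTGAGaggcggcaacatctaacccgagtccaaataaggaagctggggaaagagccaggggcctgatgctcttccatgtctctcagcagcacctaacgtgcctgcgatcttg
Cav1: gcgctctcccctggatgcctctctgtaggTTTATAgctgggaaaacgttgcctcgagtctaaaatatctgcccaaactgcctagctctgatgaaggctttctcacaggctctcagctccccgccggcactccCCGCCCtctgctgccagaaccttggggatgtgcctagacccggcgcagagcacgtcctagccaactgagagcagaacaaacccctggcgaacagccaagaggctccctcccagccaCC
The Clic5 stretch is chr17:44188322-44188571 on the plus strand, Pdpn chr4:143299565-143299814 on the minus strand, Hopx chr5:77115124-77115373 on the minus strand and Cav1 chr6:17306085-17306334 on the plus strand. Clic5 carries 2 GC boxes in it, Cav1 a GC box, a TATA word and the first bases of a further GC box that crosses the start, and Hopx an NKX2-1 core 112 bases before the start. Pdpn has no match before its start.

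RefSeq promoter windows (250 bases before to 50 after a start) were held for 8 of the 10 members, in 10 windows because Hopx and Cav1 have 2 listed starts each. The GC box occurred in 6 of the 10 windows, for Aqp5, Clic5, Pdpn, Emp2, Akap5 and a start of Cav1, against 35.7% of the 32851 windows of the whole table. The NKX2-1 core occurred in 2 windows, both of Hopx, against 15.9% of all. The TEAD core GGAATG (14.7% of all), the AP-1 word TGANTCA (7.81%) and the GATA word AGATAA (11.2%) were in 0 of the 10. The members' windows differed widely in base composition. Aqp5 had 79.7% G and C, above 98.8% of all windows, while Pdpn had 48.7%, and the median of all windows was 52.7%. The CpG ratio (observed over that given by base content) ran from 0.163 in Ager to 0.974 in Aqp5, both of which were lower in LLC1, and its median over all windows was 0.384. The RefSeq start of Aqp5 lies 179 bases inside the deposited gene model, so its upstream bases are not printed.

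Among the members, Clic5 and Aqp5 had the most negative log2 fold changes, with Pdpn (-7.73 ± 0.12) close to Aqp5. Aqp5 (ENSMUSG00000044217, chromosome 15, 99590849 to 99594829, mm10) encodes the water channel of the apical type I membrane. Its level in RPKM, that is CPM (counts scaled to library size) per kilobase of gene model, was 0.596, 0.471, 0.446 and 0.536 in the LLC1 libraries, against 125.5, 119.7, 125.2 and 116 in the MLE12 libraries. The groups were far apart, and LLC1 held 0.421% of the MLE12 level. The log2 fold change was -7.89 ± 0.07 (SE, adjusted p = 1.0e-23, edgeR). Clic5 (ENSMUSG00000023959, chromosome 17, 44188572 to 44280168) encodes a protein that links membranes to the actin cortex through ezrin. It stood at 0.0512, 0.0510, 0.0493 and 0.0194 RPKM in LLC1, against 13.7, 14.7, 14.2 and 14.5 RPKM in MLE12. These LLC1 levels rest on 49 counts over the 4 libraries, against 23578 counts in MLE12. Its log2 fold change of -8.39 ± 0.11 (adjusted p = 3.5e-22) was the most negative of the 10, and 117 tested genes had a lower value.

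Residual LLC1 levels this low are near the smallest share seen for any abundant gene. Among 2339 genes of at least 100 CPM in MLE12, the lowest LLC1 level was 0.325% of the MLE12 level, and 15 of those genes, Aqp5 among them, stood at or below the share of Aqp5. Clic5 and Pdpn, which were below 100 CPM in MLE12, held 0.299% and 0.472%.

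Related channel genes went both ways. Of 11 other aquaporin genes 6 were tested, with 2 higher in LLC1, 1 lower and 3 not called. Of all tested genes 40.7% were higher and 40.9% lower. Aqp1 was the lower one (5.18 ± 0.363 CPM, against 27.8 ± 1.06 CPM in MLE12, SD, n = 4 each). Aqp1 is the water channel of endothelium and mesothelium. Aqp8 and Aqp11 were higher in LLC1 at levels of at most 1.39 CPM, with Aqp11 losing its call when libraries were scaled by totals alone (adjusted p = 0.0721). Aqp3, Aqp7 and Mip did not pass the test. Among the other CLIC genes, Clic3 was lower in LLC1 (-4.21 ± 0.18 on the log2 scale), Clic4 was slightly lower (-0.21 ± 0.04) and Clic1 was higher (1.53 ± 0.04). Clic6 had no count in LLC1 and 66 counts over the MLE12 libraries, too few to be tested.

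Surface and membrane proteins were divided. Pdpn (ENSMUSG00000028583, chromosome 4, 143267431 to 143299564), which encodes podoplanin, stood at 0.114, 0.0823, 0.148 and 0.0628 RPKM in LLC1, against 21.4, 20.9, 21.3 and 22.7 RPKM in MLE12. All LLC1 libraries were far below all MLE12 libraries and held 6 to 13 counts each, 36 in all. The log2 fold change was -7.73 ± 0.12 (adjusted p = 6.1e-21). Emp2 (ENSMUSG00000022505, chromosome 16, 10281749 to 10313968) encodes a tetraspan protein of lung epithelium. Its level was 35.0, 34.7, 38.8 and 38.2 RPKM in LLC1 and 174, 177, 179.8 and 175 RPKM in MLE12. Both lines thus expressed Emp2, with all LLC1 libraries below all MLE12 libraries, and the log2 fold change was -2.27 ± 0.05 (adjusted p = 3.8e-19).

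Cav1 (ENSMUSG00000007655, chromosome 6, 17306335 to 17341452), which encodes the main structural protein of caveolae, was the member without a call. Its level was 59.7, 56.0, 56.2 and 54.8 RPKM in LLC1, against 49.9, 49.1, 52.2 and 60.4 RPKM in MLE12. The groups overlapped because MLE12 replicate 4 stood above the LLC1 libraries while the other 3 MLE12 libraries stood below them. The log2 fold change was 0.10 ± 0.06 (adjusted p = 0.11), with -0.01 to 0.21 spanned by 2 SE on either side. Without MLE12 replicate 4 it was 0.16 and passed (adjusted p = 0.00123), with upper-quartile factors it passed at 0.158 (adjusted p = 0.0151), and with library totals alone it turned to -0.000706 (adjusted p = 0.991).

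Other caveolar genes went both ways. Of 8 tested caveolin, cavin and caveolar neck genes, 5 were higher in LLC1, where 40.7% of all tested genes were, and 2 were lower. Cav2 did not pass (95.3 ± 5.81 CPM in LLC1, against 88.4 ± 16.2 CPM in MLE12). As for Cav1, MLE12 replicate 4 (112.5 CPM) stood above the LLC1 libraries (88.4 to 102.7 CPM). The other MLE12 libraries stood below them, at 77.9, 80.4 and 82.9 CPM. The list median was 0.72, against 0.02 over all tested genes. Sdpr, which encodes cavin-2, had 0.84 ± 0.04, Prkcdbp, for cavin-3, had 0.97 ± 0.06, and the membrane-bending gene Pacsin2 had 0.77 ± 0.04 on the log2 scale. Ehd2, an ATPase of the caveolar neck, was lower in LLC1 (-0.84 ± 0.04), as was Pacsin3 (-0.28 ± 0.06). Muscle caveolin Cav3 had no count in either line. In the family of Emp2, the myelin gene Pmp22 was lower in LLC1 (3.67 ± 0.387 CPM, against 143 ± 4.39 CPM in MLE12). Emp3 was higher in LLC1 (1.06 ± 0.07) and Emp1 slightly so (0.14 ± 0.04), a call that ended with library totals alone (adjusted p = 0.494). Lim2 had 4 counts in LLC1 and none in MLE12.

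Of 7 tested partners of podoplanin, 4 were higher in LLC1 and 3 lower, where 40.7% and 40.9% of all tested genes were. The hyaluronan receptor gene Cd44, whose product binds podoplanin, stood at 378 ± 10.3 CPM in LLC1, against 74.2 ± 5.17 CPM in MLE12 (2.35 ± 0.05 on the log2 scale). The ezrin, radixin and moesin genes, which tie podoplanin to actin, differed little. Ezr was at 0.30 ± 0.05, Rdx at -0.23 ± 0.04 and Msn at -0.22 ± 0.04. Cd9, which encodes a tetraspanin that binds podoplanin, was lower in LLC1 (-0.82 ± 0.04), and the galectin gene Lgals8 was higher (0.42 ± 0.05). The platelet receptor for podoplanin, Clec1b, had 517 counts over the LLC1 libraries (2.61 ± 0.30 CPM) and 2 over the MLE12 libraries.

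The 2 receptor genes were lower in LLC1 without being lost from it. Ager (ENSMUSG00000015452, chromosome 17, 34597862 to 34600936) encodes RAGE, a receptor of the immunoglobulin family that is most abundant in type I cells. Its level was 2.27, 2.45, 3.0 and 2.74 RPKM in LLC1, against 47.1, 43.9, 45.2 and 43.2 RPKM in MLE12. LLC1 held 5.83% of the MLE12 level, and the log2 fold change was -4.10 ± 0.07 (adjusted p = 2.2e-20). Gprc5a (ENSMUSG00000046733, chromosome 6, 135065651 to 135084709) encodes an orphan receptor induced by retinoic acid, whose loss leads to lung tumours in mice. It stood at 11.6, 12.5, 14.1 and 12.4 RPKM in LLC1, against 59.5, 62.4, 60.4 and 56.3 RPKM in MLE12. Its log2 fold change was -2.24 ± 0.06 (adjusted p = 1.0e-17).

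Genes for ligands of RAGE and for its adaptor went both ways. Of 8 ligand and adaptor genes tested, 6 were higher in LLC1, 1 was lower and S100b did not pass. Only 2 were higher by more than 2-fold. Of all tested genes, 40.7% were called higher and 16.7% were over 2-fold higher. S100a4 was at 1571 ± 105 CPM in LLC1, against 18.3 ± 2.76 CPM in MLE12 (6.43 ± 0.10 on the log2 scale). S100a6 (1.32 ± 0.06) and S100a11 (0.72 ± 0.05), further calcium-binding S100 genes, were higher as well. The amyloid precursor gene App was the lower one, at 5.18 ± 0.791 CPM in LLC1, against 1143 ± 19.8 CPM in MLE12 (-7.80 ± 0.08). S100a1 and the adaptor gene Diap1 lost their calls with library totals alone (adjusted p = 0.0837 and 0.557). The inflammatory gene S100a8 had 8 counts in LLC1 and none in MLE12, and S100a9 had none in either line. Hmgb1, which was higher in LLC1 (0.45 ± 0.08), has many near-identical pseudogenes, so its value is uncertain. The relatives of Gprc5a were lower in LLC1 too: Gprc5b, the more abundant, had a log2 fold change of -1.74 ± 0.05, and Gprc5c, at under 1 CPM in both lines, had -2.69 ± 0.38. Gprc5d had 6 counts in LLC1 and 2 in MLE12.

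The intracellular members were Hopx, Rtkn2 and Akap5, and the last pair differed little. Hopx (ENSMUSG00000059325, chromosome 5, 77086988 to 77115121) encodes a small homeodomain protein that does not bind DNA and acts through other factors. Its level was 6.95, 6.28, 7.47 and 6.62 RPKM in LLC1, against 24.6, 23.8, 24.6 and 27.1 RPKM in MLE12. All LLC1 libraries were lower, and the log2 fold change was -1.87 ± 0.07 (adjusted p = 2.0e-15). Rtkn2 (ENSMUSG00000037846, chromosome 10, 67979570 to 68059740) stood at 6.73, 7.15, 6.94 and 6.56 RPKM in LLC1, against 8.17, 7.48, 7.99 and 7.56 RPKM in MLE12. The groups did not overlap but lay close together, and the log2 fold change was -0.19 ± 0.05 (adjusted p = 0.0018).

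Akap5 (ENSMUSG00000021057, chromosome 12, 76324891 to 76334153) encodes the scaffold that holds protein kinase A, protein kinase C and calcineurin near membrane channels and receptors. It was the scarcest member in MLE12, with 0.515, 0.721, 0.463 and 0.638 RPKM in LLC1, against 0.875, 0.790, 0.712 and 0.589 RPKM in MLE12. The groups overlapped. The log2 fold change was -0.35 ± 0.15 (adjusted p = 0.037), and it no longer passed without LLC1 replicate 1 (adjusted p = 0.103), LLC1 replicate 3 (0.126), MLE12 replicate 1 (0.125) or MLE12 replicate 2 (0.0723). It also did not pass with upper-quartile factors (0.0832).

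Genes related to these 3 members went both ways. HOPX partners were all lower in LLC1 (4 of 4 tested), where 40.9% of all tested genes were. The transcription factor gene Gata6 was at 5.43 ± 0.359 CPM in LLC1, against 90.9 ± 3.09 CPM in MLE12 (-4.07 ± 0.06 on the log2 scale). Epc1 (-0.59 ± 0.05), the deacetylase gene Hdac2 (-0.38 ± 0.06) and Srf (-0.17 ± 0.05) differed less. Rtkn, the paralog of Rtkn2, was higher in LLC1 (1.89 ± 0.05). Of the other A-kinase anchoring genes, 12 were tested, with 4 higher in LLC1, 4 lower and 4 not called. Of all tested genes 40.7% were higher and 40.9% lower. Akap12 was at 1.78 ± 0.242 CPM in LLC1, against 229 ± 7.49 CPM in MLE12 (-7.00 ± 0.07), and Akap1 (-1.39 ± 0.04) and Akap13 (-1.17 ± 0.05) were lower too. Akap6 (5.95 ± 0.17), Akap7 (1.81 ± 0.09) and Akap10 (0.64 ± 0.06) were higher, and the call of Akap2 ended with library totals alone (adjusted p = 0.779).

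All 9 listed enzymes and partners bound by AKAP5 were called, 6 higher in LLC1 and 3 lower, where 81.6% of all tested genes were called. The subunits of protein kinase A did not move together. The regulatory gene Prkar2b was higher in LLC1 (49.7 ± 1.80 CPM, against 3.73 ± 0.713 CPM in MLE12), while Prkar2a (-0.61 ± 0.04) and the catalytic gene Prkaca (-1.54 ± 0.05) were lower. The postsynaptic scaffold gene Dlg4 (3.09 ± 0.08) and the protein kinase C gene Prkca (0.89 ± 0.04) were higher in LLC1. The calcineurin gene Ppp3cb was lower (-0.61 ± 0.07), and Ppp3ca lost its call with library totals alone (adjusted p = 0.119).

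**Figure D3:**
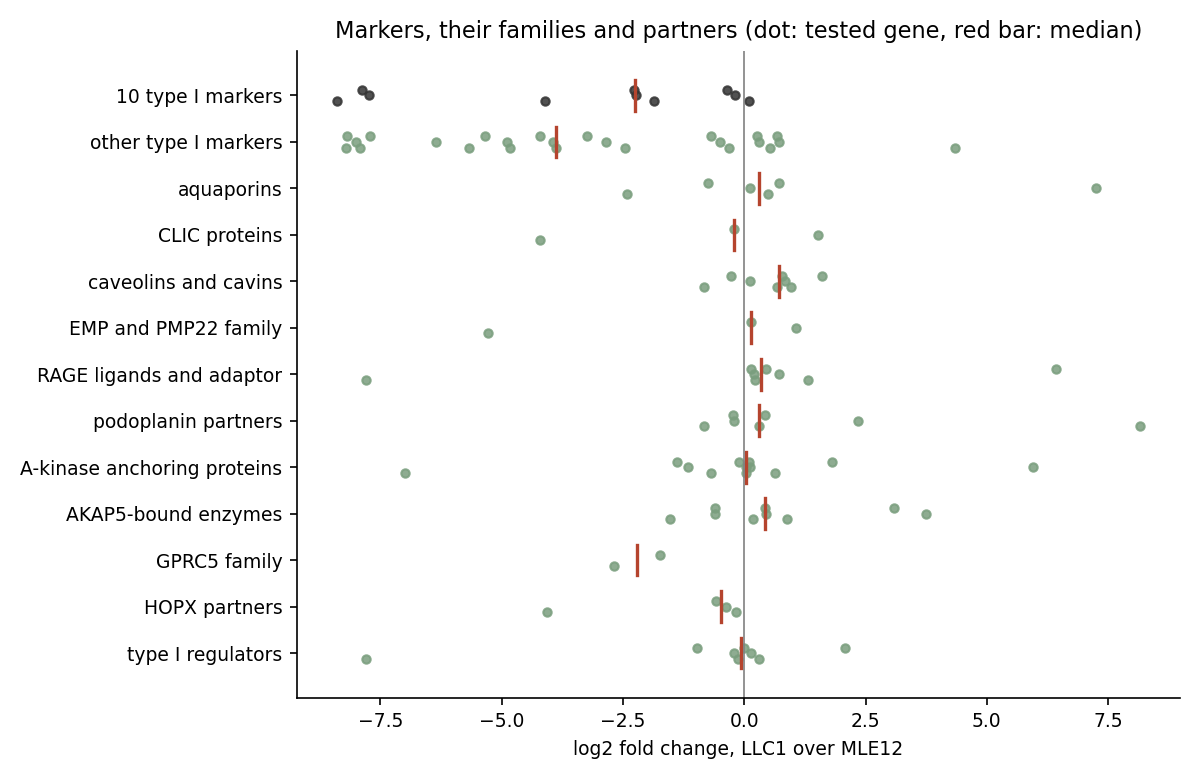
Log2 fold changes (LLC1 over MLE12) of the tested genes of 12 lists, with the 10 marker genes in the top row. Dots are genes and red bars are list medians. The 10 markers (-2.25), the other type I markers (-3.89) and the GPRC5 family (-2.22) have the lowest medians.

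Ranked by RPKM, the order of the members differed between the lines. In LLC1 Cav1 was highest (56.7 ± 2.09 RPKM), followed by Emp2, Gprc5a, Rtkn2, Hopx, Ager, Akap5, Aqp5, Pdpn and Clic5 (0.0427 ± 0.0155 RPKM). In MLE12 the order was Emp2 (176 ± 2.55 RPKM), Aqp5, Gprc5a, Cav1, Ager, Hopx, Pdpn, Clic5, Rtkn2 and Akap5 (0.742 ± 0.122 RPKM). Adjacent members whose libraries overlapped were Rtkn2 and Hopx, and Akap5 and Aqp5, in LLC1, and Gprc5a and Cav1 in MLE12. This order depends on gene length, and the deposited lengths of Aqp5 (1667 bases), Clic5 (5870) and Emp2 (3440) are shorter than the exon unions of GENCODE M21 (2599, 8782 and 8644). With those unions as lengths, a choice made after seeing the data, Aqp5 (78.0 RPKM) stood above Emp2 (70.2 RPKM) in MLE12, and in LLC1 Hopx and Rtkn2 changed places. By the deposited lengths Aqp5 stood above 21.1% of tested genes in LLC1 and above 98.1% in MLE12. Libraries of a line lay close together for abundant members, with coefficients of variation of 1.45% for Emp2 in MLE12 and 3.69% for Cav1 in LLC1. They spread most for Pdpn (36.6%) and Clic5 (36.3%) in LLC1, where counts were few.

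Other genes used as type I markers, listed with earlier results of these data known, were mostly lower in LLC1. Of 25 tested, 19 were lower in LLC1 and 6 higher, with a median log2 fold change of -3.89, and 16 were lower by more than 2-fold. Of all tested genes 40.9% were lower, 16.9% by more than 2-fold, and the median was 0.02. Igfbp2, an insulin-like growth factor binding protein gene, was at 0.927 ± 0.113 CPM in LLC1, against 276 ± 9.94 CPM in MLE12. The secreted factor gene Ndnf (-8.19 ± 0.12 on the log2 scale) and the small heat shock gene Cryab (-8.01 ± 0.12) were lower as well. The scaffold gene Ahnak (0.71 ± 0.04), Pxdc1 (0.53 ± 0.05) and the heparan sulfate enzyme gene Hs2st1 (0.30 ± 0.04) were higher in LLC1. Cldn18, the alveolar claudin gene, was near the floor in both lines, with 36 counts over the LLC1 libraries and 14 over the MLE12 libraries, as were Cyp2b10 and Mal2.

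Among regulators of the type I state, the lung factor gene Nkx2-1 was at 0.663 ± 0.109 CPM in LLC1, against 146.5 ± 6.39 CPM in MLE12. The coactivator genes Yap1 (-0.22 ± 0.04) and Wwtr1 (0.30 ± 0.04), which encodes TAZ, differed little and in opposite directions. Of the TEAD genes, Tead2 was lower in LLC1 (-0.98 ± 0.05), Tead1 was lower by little (-0.12 ± 0.04), a call that ended with upper-quartile factors (adjusted p = 0.223), Tead4 was higher by little (0.13 ± 0.05), a call that ended with library totals alone (adjusted p = 0.681), and Tead3 did not pass. Klf5, a zinc finger factor gene, was the regulator over 2-fold higher in LLC1 (6.86 ± 0.657 CPM, against 1.62 ± 0.204 CPM in MLE12, 2.07 ± 0.13 on the log2 scale). Over all 13 lists of families, partners, other markers and regulators, 98 genes were tested, of which 46 (46.9%) were lower in LLC1 and 42 higher, where 40.9% and 40.7% of all tested genes were.

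Markers of other cell types were measured beside the members, since several members are shared with those types. The 5 mesothelial genes (Msln, Wt1, Upk3b, Lrrn4 and Upk1b) were all lower in LLC1, as were 40.9% of all tested genes. Their summed level was 2.62 to 3.25 CPM in LLC1, against 203 to 207 CPM in MLE12. Msln was at 2.56 ± 0.216 CPM in LLC1, against 92.2 ± 0.971 CPM in MLE12, and Upk3b at 0.318 ± 0.144 CPM in LLC1, against 89.9 ± 1.43 CPM in MLE12. Pdpn and Aqp1 are also made by mesothelium, and the part of these genes in the results for Pdpn and Aqp1 was not tested. Of 11 type II genes 6 were tested, 4 lower in LLC1 and 1 higher, where 40.9% and 40.7% of all tested genes were. The sum was 168 to 179 CPM in LLC1, against 211 to 237 CPM in MLE12. In LLC1 it was mostly Etv5, the gene called higher (119.1 ± 3.7 CPM, against 45.2 ± 1.13 CPM in MLE12). Abca3 made up most of the rest (51.8 ± 2.91 CPM, against 124.1 ± 8.13 CPM in MLE12). The defining type II genes were nearly absent from LLC1 and partly absent from MLE12 itself. Sftpc was at 0.154 ± 0.0549 CPM in LLC1, against 23.6 ± 1.59 CPM in MLE12. Sftpb was at 0.312 ± 0.0255 CPM in LLC1, against 32.4 ± 1.07 CPM in MLE12. In MLE12, Sftpd had no count and Sftpa1 had 7 counts. Fibroblast genes summed to 1415 to 1549 CPM in LLC1, against 331 to 369 CPM in MLE12, mostly Col3a1 in LLC1 and Dcn in MLE12. The sum does not stand for the list, whose median log2 fold change was -5.79. Of 6 fibroblast genes 5 were tested, with 3 lower in LLC1 (Col1a1, Col1a2 and Dcn) and 2 higher (Col3a1 and Pdgfra). Of all tested genes 40.9% were lower and 40.7% higher.

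Blood endothelial genes summed to 57.0 to 63.2 CPM in LLC1, against 73.9 to 77.0 CPM in MLE12, nearly all of it Ramp2. The defining genes Tie1 and Emcn had no count in either line. Cdh5 was at 0.233 CPM in LLC1, against 0.0226 CPM in MLE12, and Pecam1 at 0.247 CPM in LLC1, against 0.209 CPM in MLE12. Tek was lower in LLC1 (0.0563 ± 0.089 CPM, against 2.95 ± 0.284 CPM in MLE12). Cav1 is also an endothelial gene, and the part of these genes in its level was not tested. The lymphatic genes Prox1, Lyve1 and Ccl21a had no count in LLC1 and 42, 2 and 1 counts in MLE12, while Flt4 was at 0.0385 ± 0.0306 CPM in LLC1, against 7.09 ± 0.762 CPM in MLE12. Pdpn also marks lymphatic endothelium, and the part of these genes in its result was not tested. The leukocyte gene Ptprc had no count in LLC1 and 2 counts in MLE12, and Emr1 had none in either, while Cd68 was higher in LLC1 (1.94 ± 0.11). Airway basal, secretory and ciliated genes summed to 0.15 to 1.40 CPM in LLC1, against 1.84 to 2.7 CPM in MLE12, and the Krt5 counts in LLC1 were all in replicate 3.

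The nearest tested gene on each side was taken for each member, 20 in all. Their median log2 fold change was 0.22, and 14 did not pass the test for more than 2-fold, 4 were higher in LLC1 and 2 lower. Of all tested genes 16.7% were over 2-fold higher and 16.9% lower, so these counts are near the background. Aqp5 lies 25.7 kb from Racgap1, which stood at 0.09 ± 0.04 on the log2 scale, and Ager lies 0.155 kb from Rnf5 (0.19 ± 0.05) and 0.462 kb from Pbx2 (0.43 ± 0.04). The neighbours lower in LLC1 were Enpp4, 82.8 kb from Clic5 (-6.19 ± 0.11), and Atf7ip2, 38.7 kb from Emp2, which had 1 count over the LLC1 libraries and 295 over the MLE12 libraries. On the other side of Clic5, Runx2 was higher in LLC1 (72.1 ± 1.29 CPM, against 25.4 ± 1.12 CPM in MLE12), and on the other side of Emp2, Nubp1 was at -0.63 ± 0.05. Neighbours higher in LLC1 also included Spink2 beside Hopx (5.46 ± 0.20), Hebp1 beside Gprc5a (1.98 ± 0.11) and Met beside Cav1 (3.73 ± 0.05). The genes on the other sides of these 3 members were 1700112J05Rik (0.19 ± 0.48), Ddx47 (0.42 ± 0.04) and Cav2 (0.11 ± 0.11).

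**Figure D4:**
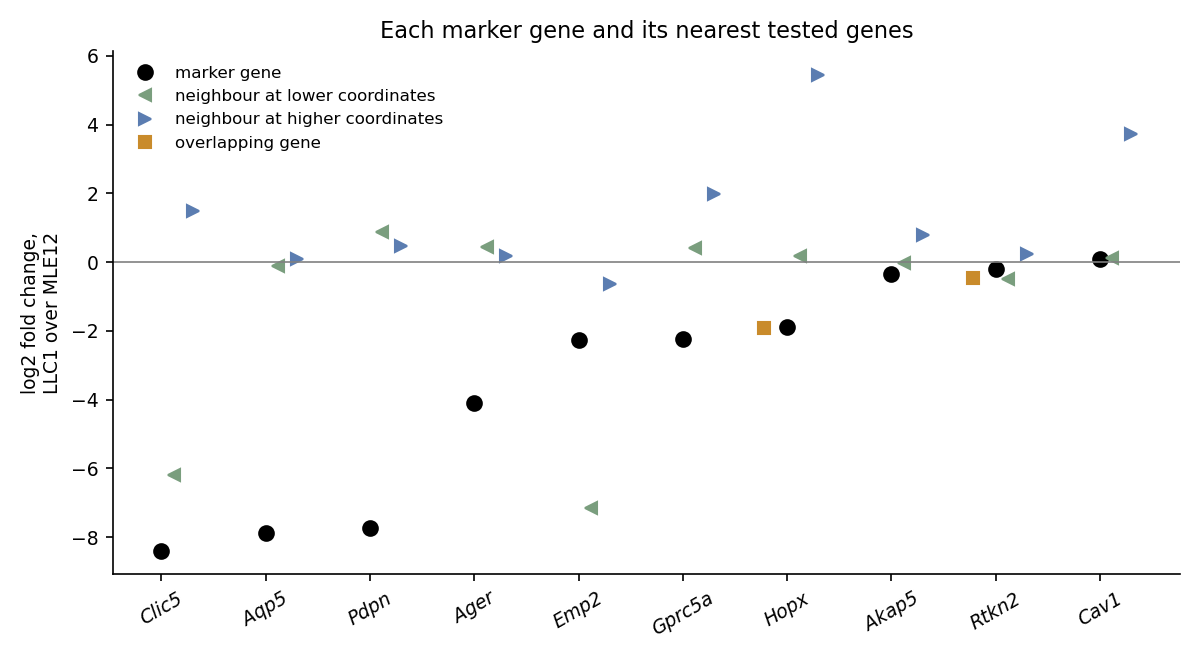
Log2 fold change (LLC1 over MLE12) of each marker gene (black circle), of its nearest tested gene on either side (triangles) and of any overlapping tested gene (squares). Enpp4 beside Clic5 (-6.19) and Atf7ip2 beside Emp2 (fitted on 1 LLC1 count) are the neighbours below -2, and Hopxos lies level with Hopx.

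Hopx, Rtkn2 and Cav1 overlap another gene model on the opposite strand, and the library protocol in the labels describes no step that marks strand. How the authors counted reads in such overlaps is not given in the labels. Hopxos shares 412 exon bases with Hopx, whose exons span 1516 bases, and it had a log2 fold change of -1.92 ± 0.08, close to that of Hopx (-1.87). Without strand, reads of Hopx and Hopxos in that stretch cannot be told apart, so both values are uncertain there. Gm16212 shares 216 exon bases with Rtkn2, whose exons span 5547 bases, and stood at -0.47 ± 0.10. Gm15581 spans the whole of Cav1 without sharing exon bases and had 0 counts in LLC1 and 3 in MLE12.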

How the data were processed

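Messenger RNA of the LLC1 and MLE12 lines was measured in 4 libraries each, grouped by the cell line in the labels. The authors deposited raw counts for each gene. The submitters' processing notes name build mm10 and, as tools, featureCounts, TopHat2, CASAVA and edgeR. Their versions, the strand setting and the annotation are not given in the sources used here. The deposited table's gene length (unit: other, in bases) equalled the exon union of GENCODE M21 for 7 of the 10 members. For Aqp5, Clic5 and Emp2 it was shorter, which changes their RPKM and not their fold changes.

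Counts were analysed on the whole table with edgeR 4.0.16 in R 4.3.3: filterByExpr, TMM scaling (factors 0.924 to 1.04), robust glmQLFit, glmQLFTest for LLC1 over MLE12 without covariates, and glmTreat for a minimum fold of 2. P-values were adjusted over all tested genes and called under 0.05. CPM uses the scaled library sizes, and RPKM is CPM per kilobase of the deposited length. The SE is the log2 fold change divided by the square root of F. A count of 0 allows 3 counts, or 0.0640 CPM in the shallowest library, for counting error only.

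The members and lists were chosen with earlier results of these data known. All members were named; from each list, up to 3 called genes per direction of at least 10 CPM with the largest changes, others in lists of 5 or fewer, and both neighbours of a member where 1 was over 2-fold. Other genes named beyond that rule (Aqp8, Aqp11, Clec1b, Cldn18, Tead1, Klf5 and single marker genes among them) were chosen after their values were seen. In simulated counts the fit on 17138 genes recovered 50 of 50 genes changed 1.5-fold and called 7 of 16938 unchanged genes. Every gene was given 1 common spread (coefficient of variation 7.1% beyond sampling noise). Few genes were changed, while 81.6% of tested genes were called in the data. The recovery thus does not cover genes of few counts or of larger spread, such as Akap5 (20.0% in LLC1). Libraries of a line differed beyond sampling noise (chi-square per degree of freedom 6.35 to 53.1). The genes of 1 list other than Rtkn are not reported here one by one. Sequences are from RefSeq (GRCm38.p6), and motif matches are exact letters. Alternatives were DESeq2 1.42.0, other scalings, other filters, the replicate block and each library left out.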

Additional observations from a re-analysis of the deposited data

Results flagged for a closer look

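In LLC1 replicate 4, Clic5 stood at 0.114 CPM, away from the other LLC1 libraries at 0.289 to 0.300 CPM, a gap of 0.94 of the whole range. Chance flags about 1 in 20 groups of this kind, and 1 of the 20 groups examined (10 members in each line) was flagged. The value rests on 6 counts in that library.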

How the results depend on the processing

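The 7 members over 2-fold (Aqp5, Clic5, Pdpn, Ager, Emp2, Gprc5a and Hopx) and Rtkn2 kept direction and call under all 15 alternatives to the test, with log2 fold changes of -7.99 to -7.84 for Aqp5, -8.50 to -8.13 for Clic5 and -0.29 to -0.13 for Rtkn2. The count lower in LLC1 was 8 or 9, and the count over 2-fold was 7 wherever glmTreat was run. Akap5 lost its call with upper-quartile factors (-0.29), with at least 1 CPM in 4 libraries (-0.30) and with the replicate block (-0.35, adjusted p = 0.0518), and ran from -0.461 to -0.25 with a library left out. Cav1 was at -0.000706 with library totals alone, a change of sign, and passed as higher in LLC1 with upper-quartile factors (0.158) and with at least 1 CPM (0.151). With a library left out it ran from 0.0551 to 0.161. The count of members higher in LLC1 was then 1 with upper-quartile factors, 1 with at least 1 CPM and 0 to 1 with a library left out. For these changes the cause was not tested. With GENCODE M21 exon unions as lengths, chosen after seeing the data, the level of Emp2 minus that of Aqp5 in MLE12 turned to -7.8 RPKM, against 54.8 RPKM with the deposited lengths. Replicate numbers gave no clear pairing of the libraries. Same-numbered deviations correlated at -0.069, 0.16, 0.14 and -0.20, and 2 of 4 LLC1 libraries matched their own number best. These deviations are taken from a mean of only 4 libraries, so they cannot exclude a pairing. Members with under 50 counts in LLC1 (Clic5 and Pdpn) are limited there by counting error.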
